A study of Mus musculus with 6 samples.

Results

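Pyruvate made by glycolysis enters mitochondria through a carrier, is turned into acetyl-CoA by the pyruvate dehydrogenase complex and is oxidised in the citric acid cycle. Kinases switch the complex off by phosphorylating it and phosphatases switch it on again, while citrate that leaves the mitochondrion feeds lipid synthesis in the cytosol. The 32 nuclear genes described here encode this route. They cover the complex and its kinases and phosphatases, the pyruvate carrier and pyruvate carboxylase, and the cycle enzymes. A last group holds cytosolic partners, NADP-dependent enzymes, the mitochondrial malic enzyme and citrate export. The genes were picked by gene symbol, and all 32 were among the 24410 symbols of the deposited table.

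RNA had been sequenced from CD41+ cells of mice with the genotype Txnip -/- (KO 1 to KO 3) and from wild-type mice (WT 1 to WT 3), all of the C57BL/6 strain and 5 months old. Lineage-negative marrow cells of both genotypes had been cultured for 3 days with stem cell factor at 100 ng/mL and thrombopoietin at 20 ng/mL, then sorted for CD41, the megakaryocyte integrin encoded by Itga2b. Txnip encodes the thioredoxin-interacting protein, which restrains glucose uptake, and the question was what its loss changes in developing megakaryocytes. The labels do not say whether the libraries of a genotype came from separate mice, so the p-values speak only for the variation among these libraries, part of which may be technical. How the Txnip allele was made is not given in the sources used here.

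Levels are given in FPKM, that is, fragments scaled by transcript length and by the total of mapped fragments. Differences are KO minus WT on the log2(FPKM + 1) scale, which understates the change of low genes. Txnip was listed at 0, 0.04 and 0 FPKM in KO 1 to KO 3, against 112, 228 and 143 FPKM in the WT libraries, which matches the labels. The sorted cells held megakaryocyte transcripts: the summed FPKM of 14 markers ran from 704 to 1914 in KO and from 670 to 1814 in WT libraries, although Tubb1, a tubulin of mature megakaryocytes, lay between 0.17 and 1.47 FPKM. The 10 neutrophil and granule markers summed to between 3874 and 8870 FPKM in KO and between 5858 and 7490 in WT, so other myeloid transcripts were abundant. Of 9 erythroid markers the sums were 89.2 to 115 FPKM in KO and 123 to 140 in WT, and these ranges did not overlap. Among single genes tested, 1.03% had all KO libraries below all WT libraries. With libraries rescaled to a common FPKM sum, the erythroid ranges did overlap. None of the 6 erythroid markers that were tested passed an adjusted p of 0.05 (limma), against 0.0178% of all genes, and the sums were not tested. Markers of monocytes and macrophages summed to between 1095 and 1656 FPKM in KO and between 649 and 1765 in WT, and those of mast cells and basophils to between 557 and 1307 FPKM in KO and between 948 and 1437 in WT. Lymphoid and stromal markers were low, with T and NK cell markers at no more than 0.73 FPKM in sum. B cell markers summed to between 8.4 and 15.7 FPKM in KO and between 9.05 and 15.6 in WT. Stroma and adipocyte markers summed to between 5.71 and 9.1 FPKM in KO and between 6.78 and 9.34 in WT. Cd3e, Pax5, Ebf1, Cxcl12 and Plin1 were listed at 0 in all 6 libraries. Endothelial markers summed to between 66.4 and 101 FPKM in KO and between 76.9 and 96.8 in WT. The part of these other cells in the values below was not tested, and fewer cells of a type and less RNA per cell cannot be told apart in bulk samples. WT 2 stood apart: its FPKM summed to 1131641, against 715205 to 805730 in the other 5 libraries, and Rpph1 and Rmrp, the RNAs of RNase P and RNase MRP, held 30.4% of that sum, against 10.7% to 20.6%. Libraries of the same number are called a pair below, because they deviated together from the means of their genotypes across genes.

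The route was well expressed. Over the 31 genes that reached at least 1 FPKM in at least 3 libraries, the median of the genes' mean levels was 59.5 FPKM, against 14.0 FPKM over all 11249 genes tested, and 19 of the 31 averaged at least 50 FPKM. Idh2, the mitochondrial NADP-dependent isocitrate dehydrogenase, had the highest mean, at 182 FPKM over the 6 libraries. The summed FPKM of the 32 genes was 1592, 2242 and 1965 in KO 1 to KO 3, against 1834, 2087 and 1993 in WT 1 to WT 3, so the groups overlapped. Pdk4, the kinase isoform known to be induced by fasting, was listed at 0 in 5 libraries and at 0.06 FPKM in KO 3. It was left out of the test as too low.

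**Figure D1:**
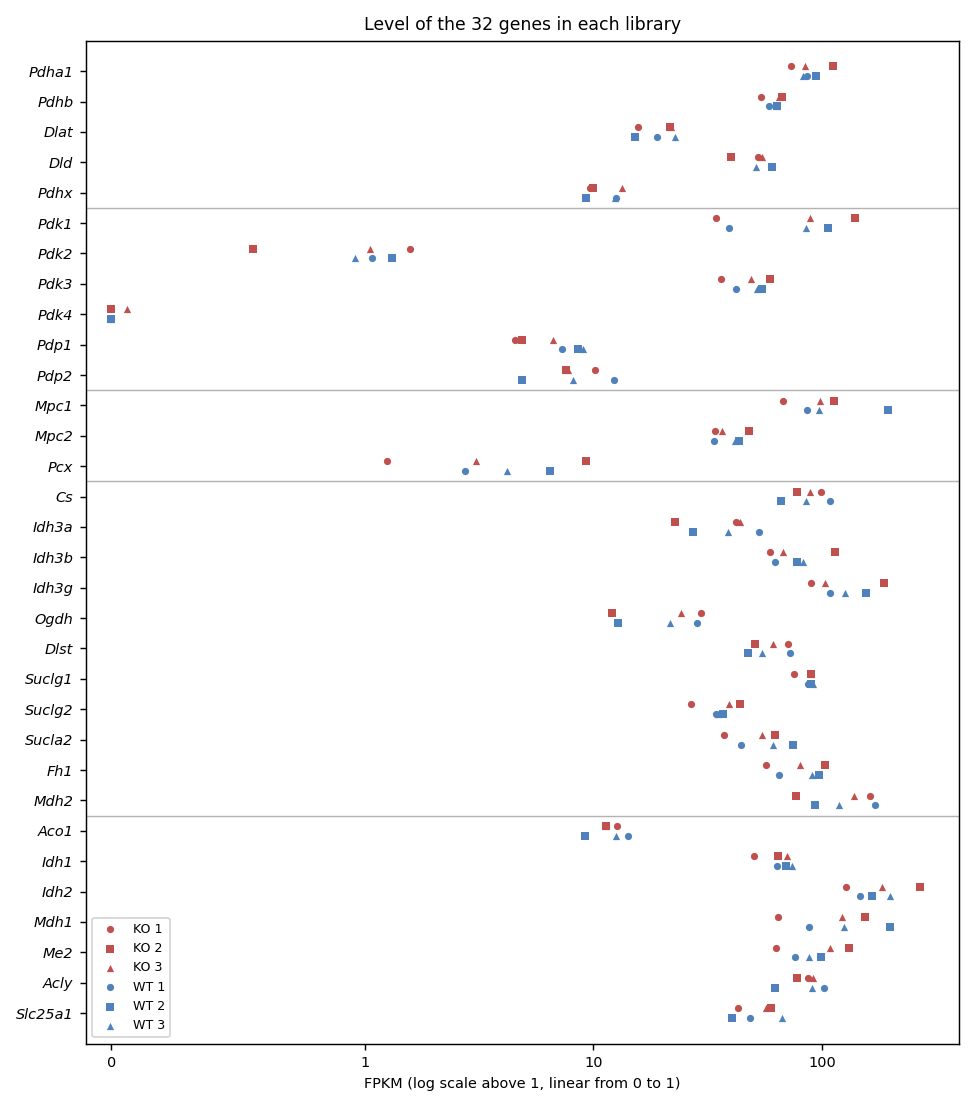
FPKM of the 32 genes in each library, with KO libraries in red above WT libraries in blue and 1 symbol shape per library number; the axis is logarithmic above 1 FPKM and linear below, and grey lines part the 5 role groups. Most genes lie between 10 and 200 FPKM with both genotypes overlapping, while Pdk4 sits at or near 0 and the 3 KO values of Pdp1 lie left of its 3 WT values.

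None of the 31 tested genes passed an adjusted p of 0.05 between genotypes (limma, Benjamini-Hochberg over 11249 genes), with or without the pair as a block. Over all genes 0.0178% passed without the block and 0.0267% with it, so few genes of any kind were called. At an unadjusted p under 0.05, 1 of the 31 genes differed, Pdp1, in both fits, against 0.676% of all genes without the block and 6.93% with it. The differences of the 31 genes ran from −0.56 to 0.14 with a median of −0.01, against a median of 0.06 over all genes, and 28 of 31 lay within 0.25 of 0, against 77.3% of all genes. Values were higher in KO for 13 genes and lower for 18, so 41.9% were higher, against 63.4% of all genes. This split moved with the scaling, for all genes too. With libraries rescaled to a common FPKM sum it was 25 to 6 (80.6% higher, against 86.6% of all genes), with median-ratio scaling 5 to 26 (16.1% against 48.8%) and with quantile normalization 10 to 21 (32.3% against 51.2%). The share of these genes that was higher lay below that of all genes under each of these 4 scalings, and 25, 22, 26 and 21 of the 31 lay below the median of all genes. Common-sum and median-ratio scaling multiply each library by a constant and so shift all genes nearly alike. These counts are therefore not independent of each other. Without WT 2 the split was 14 to 17 (45.2% against 51.5%), with 18 of 31 below that median, and none passed. The common sum moved the median of all genes by 0.16, to 0.22, with a median of 0.15 for these genes.

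The 95% confidence intervals show what the 6 libraries could resolve. They lay wholly between −1 and 1 for 26 of the 31 genes without the block and for all 31 with it, and their median half-width was 0.56 without the block and 0.35 with it. A change in a single gene smaller than these half-widths could not be told from 0, and a gene that did not pass may still differ.

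**Figure D2:**
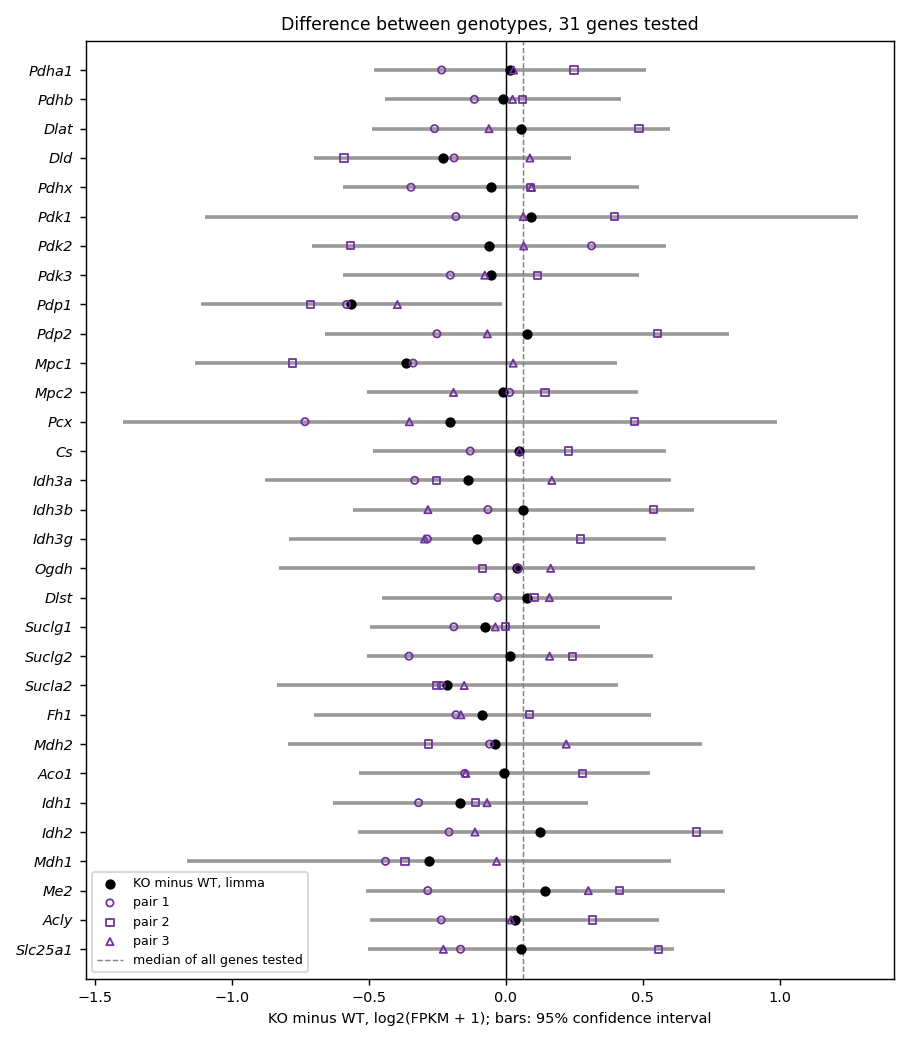
KO minus WT on the log2(FPKM + 1) scale for the 31 tested genes, with black points for the limma estimate, grey bars for its 95% confidence interval and open symbols for the differences within the 3 pairs. Only the interval of Pdp1, from −1.11 to −0.02, leaves out 0, and its 3 pair differences are all negative; the dashed line is the median of all genes tested, 0.06.

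Among the regulators of the complex, Pdp1 had lower values in KO. Pdp1 is the calcium-stimulated catalytic subunit of pyruvate dehydrogenase phosphatase, which removes the inhibitory phosphates from the complex. It was at 4.52, 4.85 and 6.63 FPKM in KO 1 to KO 3, against 7.26, 8.59 and 9.04 FPKM in WT 1 to WT 3. In deposited FPKM all KO libraries lay below all WT libraries, as they did in 1.03% of the genes tested. With libraries rescaled to a common FPKM sum, KO 3 lay above WT 2, so the genotypes overlapped. The difference was −0.56 (SE 0.24; limma, unadjusted p = 0.0452, adjusted p = 1.00), and with the block the SE was 0.16 (unadjusted p = 0.00504, adjusted p = 0.613), so it did not pass over all genes. Within pairs 1, 2 and 3 the differences were −0.58, −0.71 and −0.40. The value stayed negative under each of the 20 alternatives run, between −0.71 without KO 3 and −0.41 with a common FPKM sum. The limma fit with the common sum gave an unadjusted p of 0.277. Without WT 2 the value was −0.54 (limma, unadjusted p = 0.0914).

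Pdp2, the other phosphatase isoform, did not share this pattern. It was at 10.2, 7.56 and 7.72 FPKM in KO 1 to KO 3, against 12.3, 4.84 and 8.14 FPKM in WT 1 to WT 3. The KO values lay within the WT range, and the difference was 0.08 (SE 0.32), whose sign followed pair 2 alone. Whether the differences of Pdp1 and Pdp2 differ from each other was not tested.

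**Figure D3:**
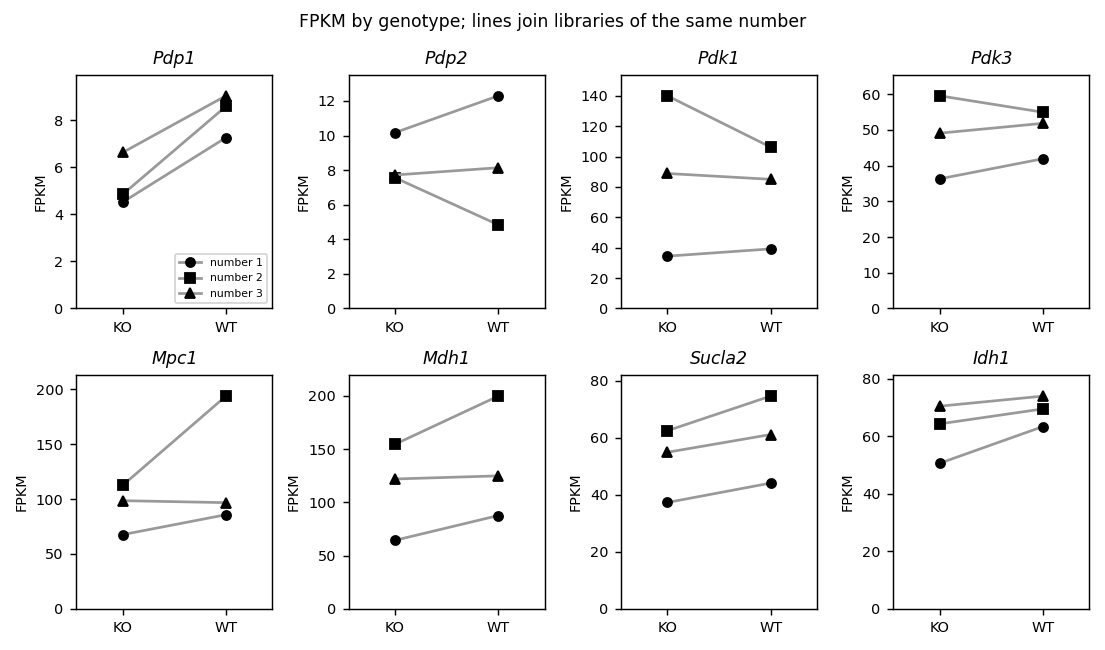
FPKM in KO (left) and WT (right) libraries for 8 genes of the route, on linear axes from 0, with a line joining the KO and WT library of the same number. Pdp1, Mdh1, Sucla2 and Idh1 are lower in KO in all 3 pairs, Pdp2, Pdk1 and Pdk3 change direction between pairs, and Mpc1 is lower in KO in pairs 1 and 2 only.

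The kinases were represented almost wholly by 2 of the 4 isoforms, Pdk1 and Pdk3. Pdk1, a known target of hypoxia-inducible factor, was at 34.5, 140 and 88.9 FPKM in KO 1 to KO 3, against 39.2, 106 and 85.1 FPKM in WT 1 to WT 3. Pdk1 varied 4.07-fold between its lowest and highest library, while its genotype difference was 0.09 (95% interval −1.10 to 1.28, and −0.26 to 0.44 with the block). Pdk3, a kinase isoform encoded on the X chromosome, lay between 36.3 and 59.5 FPKM in KO and between 41.9 and 54.9 FPKM in WT. Pdk2 stayed between 0.56 and 1.57 FPKM in KO and between 0.96 and 1.31 FPKM in WT.

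As a share of the summed FPKM of Pdk1 to Pdk4, Pdk1 held 47.6%, 70.0% and 63.9% in KO 1 to KO 3, against 47.7%, 65.4% and 61.7% in WT 1 to WT 3. Pdk3 held 50.2%, 29.7% and 35.3% in KO 1 to KO 3, against 51.0%, 33.8% and 37.6% in WT 1 to WT 3. The Pdk3 share was lower in KO in 3 of 3 pairs, by small amounts, and the genotypes overlapped (exact permutation test, two-sided p = 0.7, adjusted p = 0.969 over 14 ratios). This test, used for all ratios, sets 3 libraries against 3 without regard to pairs and cannot give a p below 0.1. A paired exact test, by turning the signs of the 3 pair differences, cannot give a p below 0.25, and gave 0.25 for the Pdk3 share. The summed kinases stood at 4.92, 16.1 and 9.69 times the summed phosphatases Pdp1 and Pdp2 in KO 1 to KO 3, against 4.20, 12.1 and 8.02 times in WT 1 to WT 3. The ratio was higher in KO in 3 of 3 pairs, but differed more between pairs than between genotypes (exact permutation p = 0.7 unpaired, adjusted p = 0.969; 0.25 paired).

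**Figure D4:**
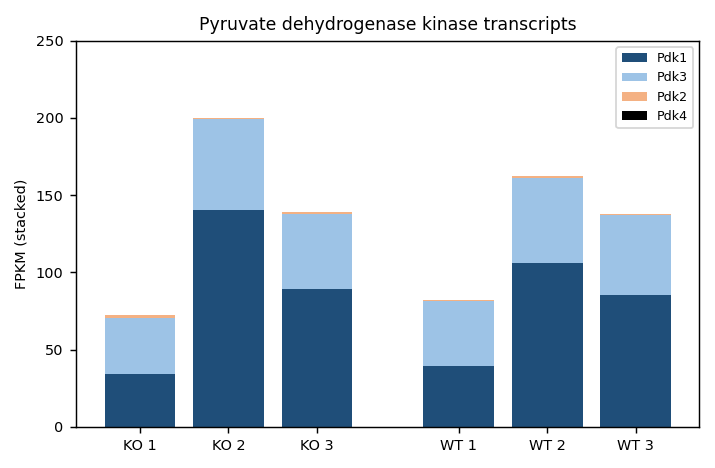
Stacked FPKM of the 4 pyruvate dehydrogenase kinase genes in each library, KO libraries left of WT libraries. Pdk1 and Pdk3 fill the bars in both genotypes, the bars are lowest in the libraries numbered 1 and highest in those numbered 2, and Pdk2 and Pdk4 are barely visible.

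Of the 5 subunits of the complex, Pdha1, Pdhb, Dlat and Pdhx had close mean levels in both genotypes. Dld averaged 49.1 FPKM in KO and 57.4 FPKM in WT. Pdha1, the alpha subunit of the decarboxylating enzyme and the one that the kinases phosphorylate, was at 73.2, 112 and 84.5 FPKM in KO 1 to KO 3, against 86.3, 94.5 and 82.9 FPKM in WT 1 to WT 3. Its difference was 0.01 (95% interval −0.48 to 0.51), with a sign that differed between pairs. Pdhb, the beta subunit of the same enzyme, had the smallest relative spread of these 5, with a 1.23-fold range over the 6 libraries, at 61.8 ± 6.81 FPKM in KO and 62.0 ± 3.01 FPKM in WT (SD, n = 3 each).

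The core acetyltransferase and its partner were less abundant. Dlat averaged 19.7 ± 3.49 FPKM in KO and 19.0 ± 3.77 FPKM in WT, and Pdhx, which anchors the lipoamide dehydrogenase, 10.9 ± 2.03 FPKM in KO and 11.4 ± 1.81 FPKM in WT (SD, n = 3 each). Dld, that lipoamide dehydrogenase, also serves the oxoglutarate dehydrogenase. Dld was at 52.6, 40.0 and 54.8 FPKM in KO 1 to KO 3, against 60.1, 60.7 and 51.5 FPKM in WT 1 to WT 3. Its difference of −0.23 (SE 0.21; limma, unadjusted p = 0.294) did not pass, and pair 3 went the other way.

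For pyruvate entry, Mpc1 and Mpc2 encode the subunits of the mitochondrial pyruvate carrier. Mpc1 was at 67.6, 113 and 98.5 FPKM in KO 1 to KO 3, against 85.7, 194 and 96.7 FPKM in WT 1 to WT 3. The difference was −0.36 (SE 0.34, limma, unadjusted p = 0.311, and 0.0612 with the block), and −0.34, −0.78 and 0.03 within pairs 1, 2 and 3. Without WT 2 alone it was −0.003, but KO 2 was also the highest of its genotype. That value thus also holds the difference between numbers. Mpc2 was even, at 39.4 ± 7.39 FPKM in KO and 39.5 ± 5.18 FPKM in WT (SD, n = 3 each). The ratio of Mpc1 to Mpc2 was 1.99, 2.35 and 2.703 in KO 1 to KO 3, against 2.55, 4.49 and 2.32 in WT 1 to WT 3, with no difference past the spread (exact permutation p = 0.5, adjusted p = 0.969).

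Pcx, pyruvate carboxylase, which makes oxaloacetate from pyruvate, was low. It was at 1.25, 9.28 and 3.05 FPKM in KO 1 to KO 3, against 2.74, 6.42 and 4.17 FPKM in WT 1 to WT 3. This 7.42-fold range was the widest of the 31 tested genes, and the WT values lay within the KO range.

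Of the 11 cycle enzyme genes, 5 (45.5%) had higher values in KO, against 63.4% of all genes, and 6 lower, with differences between −0.21 and 0.08. Cs, citrate synthase, which starts the cycle, was at 99.2, 77.6 and 88.5 FPKM in KO 1 to KO 3, against 109, 66.1 and 85.5 FPKM in WT 1 to WT 3. The genotypes overlapped, with a difference of 0.05 (95% interval −0.49 to 0.58). Idh3g, a regulatory subunit of the NAD-dependent isocitrate dehydrogenase, was at 89.2, 188 and 103 FPKM in KO 1 to KO 3, against 109, 155 and 127 FPKM in WT 1 to WT 3. Its difference was −0.10 (SE 0.30), lower in 2 of 3 pairs. The catalytic subunit Idh3a was less abundant, between 22.8 and 43.8 FPKM in KO and between 27.3 and 53.3 FPKM in WT.

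Succinyl-CoA ligase pairs the shared alpha subunit Suclg1 with an ATP-forming beta subunit, Sucla2, or a GTP-forming one, Suclg2. Sucla2 was at 37.3, 62.5 and 54.9 FPKM in KO 1 to KO 3, against 44.1, 74.7 and 61.2 FPKM in WT 1 to WT 3. All 3 pairs were lower in KO, with differences of −0.24, −0.25 and −0.15, yet the genotypes overlapped and the difference did not pass (limma, unadjusted p = 0.456, and 0.157 with the block). Its value of −0.21 was −0.001 without KO 1 and −0.04 without WT 2. Leaving out 1 library leaves the numbers uneven between genotypes, and the number held 88.8% of the sum of squares of log2(FPKM + 1) for Sucla2. Those values thus also hold the difference between numbers. Suclg2 averaged 36.5 ± 8.81 FPKM in KO and 35.4 ± 1.27 FPKM in WT (SD, n = 3 each). The ratio of Sucla2 to Suclg2 was 1.40, 1.43 and 1.40 in KO 1 to KO 3, against 1.28, 2.03 and 1.75 in WT 1 to WT 3 (exact permutation p = 0.4, adjusted p = 0.969). The KO ratios were close together and lay within the WT range.

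Among the remaining cycle genes, Ogdh and Dlst, the decarboxylase and succinyltransferase of the oxoglutarate dehydrogenase, had genotype differences of 0.04 and 0.08. The fumarase gene Fh1 was 80.1 ± 23.0 FPKM in KO and 84.0 ± 17.0 FPKM in WT, and the mitochondrial malate dehydrogenase gene Mdh2 126 ± 44.6 FPKM in KO and 128 ± 39.0 FPKM in WT (SD, n = 3 each).

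The last group, of cytosolic partners, NADP-dependent enzymes and citrate export, also holds the mitochondrial Me2 and Slc25a1. Of its 7 genes, 4 (57.1%) had higher values in KO, against 63.4% of all genes, and 3 lower. Idh2 was at 127, 269 and 184 FPKM in KO 1 to KO 3, against 147, 166 and 199 FPKM in WT 1 to WT 3, a difference of 0.12 (SE 0.29) that rested on KO 2 and was −0.15 without it. Idh1, its cytosolic counterpart, was at 50.6, 64.2 and 70.4 FPKM in KO 1 to KO 3, against 63.3, 69.4 and 73.9 FPKM in WT 1 to WT 3. Idh1 was lower in KO in 3 of 3 pairs with overlapping genotypes (difference −0.17, SE 0.20; limma, unadjusted p = 0.438), but 0.01 with a common FPKM sum. Mdh1, the cytosolic malate dehydrogenase of the malate-aspartate shuttle, was at 64.3, 155 and 122 FPKM in KO 1 to KO 3, against 87.5, 200 and 125 FPKM in WT 1 to WT 3. The difference was −0.28 (SE 0.39 without the block and 0.15 with it, limma, unadjusted p = 0.488 and 0.0913), and −0.44, −0.37 and −0.03 within pairs 1, 2 and 3. It was 0.03 without WT 2, a value that also holds the difference between numbers, as KO 2 stayed in. In all, 5 of the 31 genes (16.1%) were lower in KO in 3 of 3 pairs, namely Pdp1, Sucla2, Suclg1, Idh1 and Mdh1, against 8.68% of all genes. None was higher in 3 of 3 pairs, against 20.4% of all genes. These counts moved with the scaling: with a common FPKM sum Pdp1 alone was lower (3.23%, against 2.48% of all genes) and Ogdh alone higher (3.23% against 33.6%) in 3 of 3 pairs. With median-ratio scaling 9 genes (29.0%, against 14.2% of all genes), Pdp1 among them, were lower and 0 higher, against 13.4% of all genes.

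Genes of citrate export and use showed no difference past their spread. Slc25a1, the mitochondrial citrate carrier, averaged 53.2 ± 8.92 FPKM in KO and 51.8 ± 13.4 FPKM in WT, and Acly, the ATP-citrate lyase that makes cytosolic acetyl-CoA, 85.5 ± 6.76 FPKM in KO and 85.1 ± 20.5 FPKM in WT (SD, n = 3 each). The ratio of Acly to Cs stayed between 0.876 and 1.06 in the 6 libraries. Me2, the mitochondrial malic enzyme, was 101 ± 35.3 FPKM in KO and 87.8 ± 11.1 FPKM in WT, and Aco1, the cytosolic aconitase that doubles as an iron-regulatory protein, 11.8 ± 0.776 FPKM in KO and 11.98 ± 2.54 FPKM in WT (SD, n = 3 each).

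The libraries differed far more by number than by genotype. Of the sum of squares of log2(FPKM + 1), the number held a median of 75.6% over the 31 genes and the genotype 2.03%, against 73.5% and 5.57% over all genes tested. The number held more than the genotype in 29 of 31 genes (93.5%), against 88.9% of all genes, the exceptions being Pdp1, with 74.0% for the genotype, and Dld, with 34.6%. The number held 98.8% for Ogdh and 97.0% for Pdk1. These shares are not adjusted for the number having more levels than the genotype. The share of the number thus tends to be the larger even where neither has an effect, in these genes and in all genes.

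**Figure D5:**
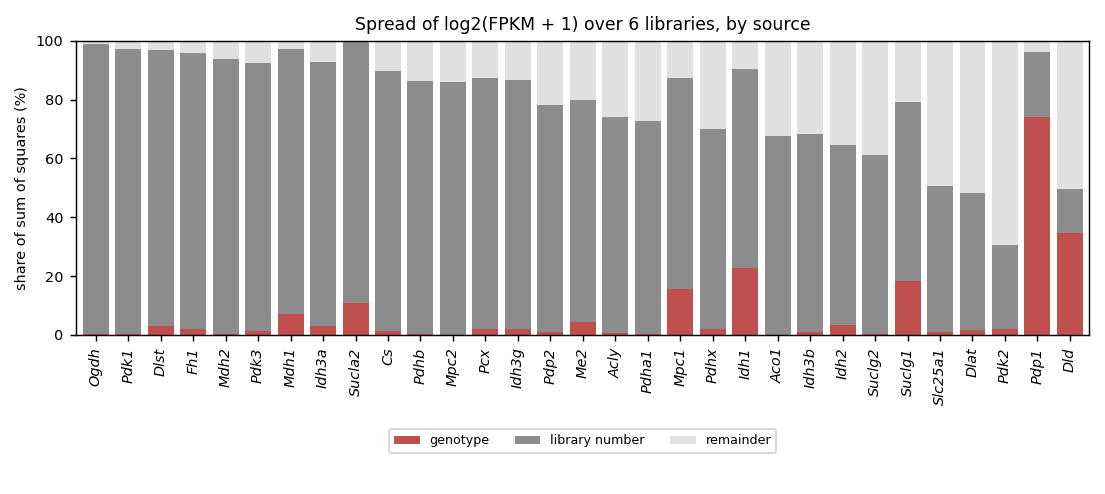
Share of the sum of squares of log2(FPKM + 1) over 6 libraries held by genotype (red), library number (dark grey) and the remainder (light grey) for the 31 tested genes, ordered by the share of the number. Genotype exceeds number in Pdp1 and Dld, the last 2 bars, while number exceeds genotype in the other 29.

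Genes of the same route moved in opposite ways between numbers. Ogdh was at 12.03 and 12.8 FPKM in KO 2 and WT 2, against 21.6 to 29.4 FPKM in the other 4 libraries, and Mdh2 at 76.7 and 93.5 FPKM against 119 to 170 FPKM. Pdk1, Mdh1, Mpc1 and Pcx were instead highest in library 2 of each genotype and lowest in library 1. The ratio of Mdh2 to Mdh1 was accordingly 2.54, 0.496 and 1.14 in KO 1 to KO 3, against 1.94, 0.468 and 0.953 in WT 1 to WT 3. The ratio was higher in KO in 3 of 3 pairs, while the genotypes overlapped (exact permutation p = 0.7 unpaired, adjusted p = 0.969; 0.25 paired).

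The summed megakaryocyte markers moved the same way as Pdk1, at 704, 1914 and 1056 FPKM in KO 1 to KO 3, against 670, 1814 and 1417 FPKM in WT 1 to WT 3. Most of each sum was Pf4, at 476, 1545 and 772 FPKM in KO 1 to KO 3, against 465, 1435 and 1129 FPKM in WT 1 to WT 3. Itga2b moved less, at 92.8, 152 and 109 FPKM in KO 1 to KO 3, against 83.2, 111 and 110 FPKM in WT 1 to WT 3. The mast cell and basophil markers went with the number in another order, at 1307, 1007 and 557 FPKM in KO 1 to KO 3, against 1437, 1062 and 948 FPKM in WT 1 to WT 3. The 9 immediate early genes, known for rapid induction by stimuli, summed to 637, 262 and 204 FPKM in KO 1 to KO 3, against 372, 221 and 190 FPKM in WT 1 to WT 3, again highest in the libraries numbered 1. The part of these genes and cells in the differences between numbers was not tested. The numbers also differed in sex, with Xist at 91.6 FPKM in KO 3 and 48.1 FPKM in WT 3 and at most 0.27 FPKM in the other libraries. The X-linked Pdha1, Pdk3 and Idh3g lay in libraries numbered 3 between those numbered 1 and 2 in KO, and in WT for Pdk3 and Idh3g.

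Promoter sequences are shown for the genes at both ends of this spread between numbers, the 2 lowest and the 2 highest in the libraries numbered 2 among those in the RefSeq promoter table (build GRCm38.p6). They were chosen after their values were seen. Each run is the 250 bases before an annotated start on the plus strand, 5′ to 3′, and capitals mark CACGTG, the E-box core shared by Myc and by the Mondo factors that drive Txnip. The windows are chr11:6291920-6292169 for Ogdh, chr5:135778399-135778648 for Mdh2, chr2:71872974-71873223 for Pdk1 and chr19:4510222-4510471 for Pcx.
Ogdh: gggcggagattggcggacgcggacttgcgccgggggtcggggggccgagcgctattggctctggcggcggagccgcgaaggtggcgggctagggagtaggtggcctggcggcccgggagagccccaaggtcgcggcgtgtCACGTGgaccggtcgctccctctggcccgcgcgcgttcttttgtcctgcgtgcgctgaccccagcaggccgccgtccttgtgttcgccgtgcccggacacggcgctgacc
Mdh2: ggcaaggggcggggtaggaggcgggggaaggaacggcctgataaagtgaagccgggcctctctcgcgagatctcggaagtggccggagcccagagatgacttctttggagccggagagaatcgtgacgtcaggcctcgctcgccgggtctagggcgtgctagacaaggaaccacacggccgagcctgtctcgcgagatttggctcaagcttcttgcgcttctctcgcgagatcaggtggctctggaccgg
Pdk1: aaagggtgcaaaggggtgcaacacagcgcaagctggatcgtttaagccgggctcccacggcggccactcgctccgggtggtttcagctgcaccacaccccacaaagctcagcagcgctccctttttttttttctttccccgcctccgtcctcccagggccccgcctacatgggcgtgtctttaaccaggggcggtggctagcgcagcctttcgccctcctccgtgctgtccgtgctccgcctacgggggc
Pcx: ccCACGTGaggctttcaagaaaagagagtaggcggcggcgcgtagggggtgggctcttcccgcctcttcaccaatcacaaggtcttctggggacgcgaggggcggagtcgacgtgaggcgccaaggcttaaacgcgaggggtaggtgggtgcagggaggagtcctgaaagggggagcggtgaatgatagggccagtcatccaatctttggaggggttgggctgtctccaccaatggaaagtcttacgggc

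The E-box core began 110 bases before the start in the Ogdh window and 248 bases before it in the Pcx window, so it was present at both ends of the spread. Both windows shown are ones that hold it: with other annotated starts counted, 3 of 6 Ogdh windows and 1 of 2 Pcx windows held it. In windows of 300 bases, 250 before to 50 after a start, 29 of the 32 genes matched the table, and Pdp1, Idh3a and Me2 did not. CACGTG, which reads the same on both strands, was in 5 of the 29 (17.2%), namely Ogdh, Pcx, Pdk2, Pdp2 and Slc25a1, against 8.09% of all genes in the table. CCGGAAGT, the site of Gabpa, was found on either strand in Dlst alone of the 29, against 4.31% of all genes. TCAAGGTCA, the site of oestrogen-related receptors, and the palindromic site of Nrf1 were in 0 of the 29, against 0.466% and 1.07% of all genes. No motif is contained in another.

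Around the route, 64 of 84 listed genes were tested, in lists of other cycle steps, cofactor supply, lactate and anaplerosis, mitochondrial carriers and regulators. None passed (limma, adjusted p, with or without the block), 36 (56.2%) had higher values in KO, against 63.4% of all genes, and 28 lower, and the median difference was 0.04, against 0.06 over all genes. In deposited FPKM, KO and WT libraries did not overlap in 4 of the 64, Bola3, Nfu1, Esrra and Pparg, against 4.35% of all genes. With libraries rescaled to a common FPKM sum, the genotypes overlapped in each of these 4 genes.

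Bola3 and Nfu1 both act in the transfer of iron-sulphur clusters to the enzyme that makes lipoate, the cofactor of Dlat and Dlst. Bola3 was at 41.4, 45.9 and 45.4 FPKM in KO 1 to KO 3, against 57.4, 68.9 and 65.7 FPKM in WT 1 to WT 3, a difference of −0.52 (SE 0.19; limma, unadjusted p = 0.0216, adjusted p = 1.00). Nfu1 was at 40.6, 40.8 and 42.4 FPKM in KO 1 to KO 3, against 47.6, 60.3 and 53.8 FPKM in WT 1 to WT 3, a difference of −0.37 (SE 0.19; unadjusted p = 0.0823, adjusted p = 1.00). With the block, the limma fit gave an unadjusted p of 0.00372 for Bola3 and 0.0282 for Nfu1 (adjusted p = 0.609 and 0.683), so neither passed. With a common FPKM sum and no block, the differences of Bola3 and Nfu1 were −0.35 and −0.20 (limma, unadjusted p = 0.278 and 0.532). The other 10 tested genes of that list split 6 higher to 4 lower, Iba57 and Lipt1 among the higher, so the list as a whole had a median of 0.004.

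Esrra, a receptor that drives genes of mitochondrial oxidation, was at 13.2, 12.1 and 13.3 FPKM in KO 1 to KO 3, against 11.7, 6.25 and 8.47 FPKM in WT 1 to WT 3. Its difference of 0.54 (SE 0.26; limma, unadjusted p = 0.0681, adjusted p = 1.00) did not pass, and was 0.34 without WT 2. With the block it did not pass either (limma, unadjusted p = 0.00942, adjusted p = 0.683). Pparg, a lipid-sensing nuclear receptor, was near the limit of what was tested, at 1.47, 0.37 and 1.47 FPKM in KO 1 to KO 3, against 1.74, 1.64 and 2.15 FPKM in WT 1 to WT 3. Its difference of −0.48 was −0.20 without KO 2. The coactivator Ppargc1a and the Mondo factor Mlxipl were at or near 0, at most 0.04 and 0.11 FPKM.

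Among other cycle steps, the assembly factors of succinate dehydrogenase Sdhaf4 and Sdhaf3 were lower in KO in 3 of 3 pairs with overlapping genotypes. Sdhaf4 was 18.5 ± 5.29 FPKM in KO and 29.7 ± 12.7 FPKM in WT, and Sdhaf3 8.11 ± 2.05 FPKM in KO and 13.0 ± 6.19 FPKM in WT (SD, n = 3 each). Their unadjusted p was 0.124 and 0.126 without the block (adjusted p = 1.00 for both) and 0.00257 and 0.00593 with it (adjusted p = 0.527 and 0.637; limma). Their differences of −0.60 and −0.56 were −0.31 and −0.22 without WT 2, with KO 2 still included. Within pairs 1, 2 and 3 they were −0.35, −0.82 and −0.63 for Sdhaf4 and −0.39, −0.88 and −0.40 for Sdhaf3. The subunit gene Sdhd and the assembly factor Sdhaf2 had differences of −0.17 and 0.14. In the lactate and anaplerosis list, Ldhb, a lactate dehydrogenase subunit, was 4.09 ± 2.07 FPKM in KO and 6.54 ± 2.74 FPKM in WT, and Slc16a1, a carrier of lactate and pyruvate, 45.9 ± 12.2 FPKM in KO and 55.8 ± 9.92 FPKM in WT (SD, n = 3 each). Both were lower in 3 of 3 pairs and did not pass, while the alanine transaminase Gpt and the acetyl-CoA synthetase Acss1 were higher in 3 of 3 pairs, by 0.28 and 0.24. Leaving out 1 library in turn moved Ldhb between −0.89 and −0.28, Slc16a1 between −0.49 and −0.14, Gpt between 0.11 and 0.47 and Acss1 between 0.04 and 0.38. The carriers Slc25a10, Slc25a22, Slc25a5 and Slc25a11 had differences between −0.11 and 0.34, and the regulators Sirt4 and Foxo3 of 0.32 and 0.26.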

How the data were processed

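The authors deposited FPKM per gene symbol and library, with 2 decimals, in 6 columns that were all used. Per the submitters' processing notes, FastQC, Trimmomatic 0.39, STAR 2.7.0a, RSEM 1.2.31 and the build mm9 were named, while the role of each tool, its settings and the gene models were not stated. RSEM estimates how reads divide between similar transcripts, so values of paralogs depend on each other. The file gives no fragment counts, so no counting interval was computed.

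Groups and numbers came from the sample titles. Genes of 1 FPKM or more in 3 or more libraries were compared, KO against WT, by a two-sided limma 3.58.1 fit in R 4.3.3 (lmFit, then eBayes allowing a trend) of log2(FPKM + 1). The Benjamini-Hochberg threshold was 0.05, and the script was tested on simulated data. Ratios were taken per library and tested by unpaired exact permutation; a paired sign-flip test was added after seeing the data. Deviations from the genotype means correlated across genes with r of 0.81, 0.59 and 0.38 for libraries numbered 1, 2 and 3, each over 0.1. On this ground libraries of 1 number were treated as pairs, and the fit was repeated with the number as block. Between libraries of different numbers r ran from −0.68 to 0.1003. The highest of these, KO 2 with WT 3, was thus also just over 0.1. Genes given library by library are those past the threshold, those whose genotypes do not overlap, and the most abundant and the smallest-p gene of each role group. Further genes so given, among them Pdp2, Cs, Mdh1 and Pcx, were added after their values were seen, and 4 genes of smallest p were named per surrounding list. The 32 genes and the lists were chosen with earlier results of these data known.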

Additional observations from a re-analysis of the deposited data

How the results depend on the processing

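No gene of the route and no gene of the surrounding lists passed under any of the 20 alternatives to the limma fit, and the smallest adjusted p for a gene of the route was 0.205, for Pdp1 with the replicate block without pair 2. Among the named genes of the surrounding lists the smallest limma adjusted p was 0.0758, for Bola3. Of the 31 tested genes, Dld, Pdp1, Mpc1 and Sucla2 kept their sign in all alternatives run and 27 did not, but Mpc1 was −0.003 without WT 2 and Sucla2 −0.001 without KO 1, values near 0. The median of the 32 genes was 0.15 with a common FPKM sum, with and without the block. Over all genes, 1 was called higher and 1 lower; the counts were 0 higher without a filter, 2 higher with the replicate block and with quantile normalization and the block, and 44 higher and 9 lower with a common sum and the block. With the block and pair 1, 2 or 3 left out they were 9, 94 and 68 higher and 27, 48 and 50 lower, and without 1 library they ran from 0 to 1 higher and from 1 to 2 lower. The cause was not tested. The block changed no call for a gene of the route.

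Signs turned for these named genes. Fits without 1 library leave the numbers uneven between genotypes, so their values also hold differences between numbers. With a common sum, with and without the block, Idh3g was 0.073, Idh1 0.0090, Sdhd 0.0053 and Slc25a5 0.070. Pdha1 was −0.058 with median-ratio scaling, and Slc25a5 was 0.021 with quantile normalization, with and without the block. With the block, Slc25a5 was 0.041 without pair 1, and without pair 2 Pdha1 was −0.10, Pdk1 −0.060 and Idh2 −0.16. Without 1 library, Pdha1 ran from −0.16 to 0.15, Pdk1 from −0.35 to 0.65, Idh3g from −0.42 to 0.11, Idh2 from −0.15 to 0.39, Sdhd from −0.31 to 0.021, Slc25a22 from −0.13 to 0.72 and Slc25a11 from −0.071 to 0.27. The ratios moved by less than the spread between libraries under their alternatives, but many turned sign. Without 1 library, only the tested ratios of Sucla2 to Suclg2, Idh2 to Idh1 and Mpc1 to Mpc2 kept theirs throughout. The log2 difference ran from −0.34 to 0.83 for Mdh2 to Mdh1 and from −0.10 to 0.75 for summed kinases to phosphatases. With 3 libraries a genotype and differences between numbers this large, small changes cannot be resolved.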
